A study of Mus musculus with 6 samples.

Results

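Transcripts of inner retinal neurons were followed through RNA of cells sorted as photoreceptors. The genes were 42 markers of bipolar (14), amacrine (12), horizontal (5) and ganglion cells (11), taken by symbol from a list, and all 42 were present among the 49997 genes counted. Levels are CPM, the usual depth-scaled unit, in which each gene's count is scaled to the total gene count of its library.

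Every animal was a Rosa26-Cas9 mouse, a line with SpCas9 in all cells, that received an adeno-associated virus (7m8 coat) under the retina of both eyes. The virus carried a guide RNA and mCherry behind a human GRK1 promoter, which directs the reporter to photoreceptors, while Cas9 itself was not limited to them. In 3 mice the guide targeted Nr2e3, a nuclear receptor of rods (guide libraries), and in 3 it was non-targeting (control libraries). The age at injection is given as postnatal day 21 in one place and as 4 weeks in another, and about 100000 mCherry-positive cells from the 2 retinas of each mouse were sorted 6 months later. Guide replicate 1 was male, guide replicates 2 and 3 were female and the 3 controls were male, so sex and guide are partly confounded.

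In the retina, photoreceptors pass their signal to bipolar cells, which carry it to ganglion cells, whose axons form the optic nerve. Horizontal cells act on the photoreceptor synapse, and amacrine cells act on bipolar and ganglion cells with the inhibitory transmitters GABA and glycine. ON bipolar cells respond to light through the glutamate receptor mGluR6 and the TRPM1 channel, OFF bipolar cells through kainate receptors. None of these neurons is a photoreceptor, so in a pure sort their specific transcripts would be scarce. Several of the markers are shared between cell types, and a count over sorted cells does not say which cell a read came from.

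Promoter sequences are shown for bipolar members whose levels bear on the results below: Cabp5, Lrtm1, Trpm1 (both of its windows) and Gng13 (its first window), which were low in control replicate 3, and Scgn and Prkca, which were high in it. Each is the RefSeq promoter window of GRCm38.p6, from 250 bases before to 50 bases after the start site, written 5′ to 3′ on the strand of the gene. Capitals mark TAATCC, the core letters read by the homeodomain factors Crx and Otx2, or AAGTCA, the half-site letters known for Nr2e3, on either strand.
Cabp5, GRCm38 chr7:13397905-13398204, plus strand: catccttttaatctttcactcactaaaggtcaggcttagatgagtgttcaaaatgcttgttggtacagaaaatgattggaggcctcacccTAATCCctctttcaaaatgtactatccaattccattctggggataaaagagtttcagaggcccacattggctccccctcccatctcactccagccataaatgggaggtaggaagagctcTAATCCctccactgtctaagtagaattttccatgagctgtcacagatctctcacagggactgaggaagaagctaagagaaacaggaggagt
Lrtm1, GRCm38 chr14:29017958-29018257, plus strand: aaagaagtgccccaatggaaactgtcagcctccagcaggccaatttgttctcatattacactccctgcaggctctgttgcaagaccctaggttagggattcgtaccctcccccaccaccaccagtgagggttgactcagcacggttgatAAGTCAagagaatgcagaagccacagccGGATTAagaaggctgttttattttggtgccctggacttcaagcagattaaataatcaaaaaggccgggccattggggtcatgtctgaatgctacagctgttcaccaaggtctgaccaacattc
Trpm1, GRCm38 chr7:64153585-64153884, plus strand: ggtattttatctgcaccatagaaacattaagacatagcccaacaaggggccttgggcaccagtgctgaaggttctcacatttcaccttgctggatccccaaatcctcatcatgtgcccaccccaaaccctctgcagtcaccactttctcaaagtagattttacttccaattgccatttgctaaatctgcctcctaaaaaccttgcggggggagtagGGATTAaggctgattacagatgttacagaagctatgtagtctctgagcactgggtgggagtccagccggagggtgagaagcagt
Trpm1, GRCm38 chr7:64185209-64185508, plus strand: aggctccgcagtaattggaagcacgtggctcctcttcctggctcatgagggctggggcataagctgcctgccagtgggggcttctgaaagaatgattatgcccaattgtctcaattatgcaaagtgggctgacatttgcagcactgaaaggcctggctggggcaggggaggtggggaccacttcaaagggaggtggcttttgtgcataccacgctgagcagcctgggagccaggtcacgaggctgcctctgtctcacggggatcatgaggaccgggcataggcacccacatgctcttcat
Gng13, GRCm38 chr17:25716922-25717221, plus strand: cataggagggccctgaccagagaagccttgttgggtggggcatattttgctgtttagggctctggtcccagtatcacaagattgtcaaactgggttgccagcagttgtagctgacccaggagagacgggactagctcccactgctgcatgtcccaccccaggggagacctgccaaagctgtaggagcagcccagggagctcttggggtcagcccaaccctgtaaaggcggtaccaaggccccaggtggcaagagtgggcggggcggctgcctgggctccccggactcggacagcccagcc
Scgn, GRCm38 chr13:23991165-23991464, minus strand: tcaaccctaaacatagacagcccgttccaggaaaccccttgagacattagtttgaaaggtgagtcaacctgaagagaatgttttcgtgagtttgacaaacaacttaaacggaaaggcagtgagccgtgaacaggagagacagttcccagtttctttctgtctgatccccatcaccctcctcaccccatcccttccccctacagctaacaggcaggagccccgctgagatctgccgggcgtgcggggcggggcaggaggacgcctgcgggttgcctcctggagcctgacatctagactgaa
Prkca, GRCm38 chr11:108343839-108344138, minus strand: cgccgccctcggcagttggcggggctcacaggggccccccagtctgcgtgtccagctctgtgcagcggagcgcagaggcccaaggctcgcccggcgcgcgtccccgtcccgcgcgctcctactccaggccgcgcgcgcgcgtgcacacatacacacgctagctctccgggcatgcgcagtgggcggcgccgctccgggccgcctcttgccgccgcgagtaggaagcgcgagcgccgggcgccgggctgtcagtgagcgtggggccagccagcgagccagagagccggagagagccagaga

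Of the 42 members, 30 matched by symbol to a promoter window. TAATCC or its reverse complement GGATTA was present for 5 of them (16.7%), namely Trpm1, Cabp5, Isl1 and Lrtm1 among 12 bipolar genes and Gad1 among 10 amacrine genes, against 7.06% of all 32851 promoter windows. Cabp5 had it at 2 places, starting at positions -160 and -41 from the start site. AAGTCA or TGACTT was present for 4 of the 30 (13.3%), Lrtm1, Slc6a9, Tfap2a and Prox1, against 15.1% of all windows. A match is a run of letters and not a bound site, and the printed windows of Gng13, Scgn and Prkca and the second window of Trpm1 hold neither motif. Among the 12 bipolar genes with a window, 9 were lower in control replicate 3 than the mean of the other controls, 4 of them with TAATCC and 5 without (Vsx1, Tacr3, Pcp2, Gnao1 and Gng13). The 3 that were higher, Grm6, Prkca and Scgn, were without it. Some genes have several windows, and a gene was counted once if any of them held the motif. The shares of members are thus per gene and those of all promoters per window. These are unlike units, so the difference between them is not a measure of enrichment. The 2 motifs did not overlap in the printed windows.

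The members were scarce beside rod transcripts. A list of 12 rod genes took 21.0 to 21.8% of gene counts in guide libraries and 20.6 to 23.2% in control libraries. The 14 bipolar genes together took 0.0255 to 0.0387% in guide and 0.0413 to 0.0471% in control libraries. Amacrine genes took 0.00575 to 0.0290% in guide and 0.0146 to 0.0348% in control libraries. Ganglion cell genes took 0.00399 to 0.00889% against 0.00567 to 0.0103%, and horizontal cell genes 0.000676 to 0.00197% against 0.000887 to 0.00255%. Per kilobase of exon, the median bipolar gene stood at 2.25 to 5.0 CPM per kb in guide and 2.03 to 5.37 in control libraries, whereas the median rod gene stood at 2283 to 2542 in guide and 2158 to 2619 in control libraries. In bulk RNA, fewer cells of a type and less RNA per cell cannot be told apart, so these shares are not shares of cells.

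Nr2e3 itself had 2024, 1773 and 2303 CPM in guide replicates 1, 2 and 3, against 1695, 1608 and 1645 CPM in control replicates 1, 2 and 3 (fitted log2 change 0.37, SE 0.13, edgeR adjusted p = 0.716). Gene counts do not show edits, so the level of Nr2e3 does not check the guide labels. Total gene counts were 24705561 to 33098812 in guide and 32626751 to 34286248 in control libraries, so that 3 counts equal 0.0906 to 0.121 CPM in guide libraries, and 0.0875 to 0.0919 CPM in control libraries. Control replicate 3 and guide replicate 2 stood apart from the other libraries of their groups. A list of 13 microglia genes summed to 37.9, 181 and 132 CPM in guide replicates 1, 2 and 3 and to 36.7, 40.4 and 362 CPM in control replicates 1, 2 and 3, and a list of 10 cone genes to 13738 to 16674 CPM in guide libraries, and 4154 to 8510 CPM in control libraries, lowest in control replicate 3. The cone sum rests on Gnat2, and without it the groups overlapped, at 8527, 7587 and 6271 CPM in guide libraries against 6511, 7483 and 3953 CPM in control libraries. Of the 10 cone genes, 6 had a log2 fold change below 0 (median -0.51). A list of 13 Muller glia genes summed to 1330 to 1597 CPM in guide libraries, and 1312 to 1749 CPM in control libraries. Clu held 46.1, 64.9 and 47.1% of this sum in guide and 24.0, 23.4 and 58.5% in control libraries. Without Clu the sums were 717, 553 and 845 CPM in guide and 996, 1017 and 725 CPM in control libraries. Guide replicate 2 and control replicate 3 were then the lowest of their groups. A list of 10 pigment epithelium genes summed to 1.30 to 4.65 CPM in guide libraries, and 6.36 to 19.3 CPM in control libraries. What part microglia, glia, cones or RNA quality have in the marker levels was not tested.

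**Figure D1:**
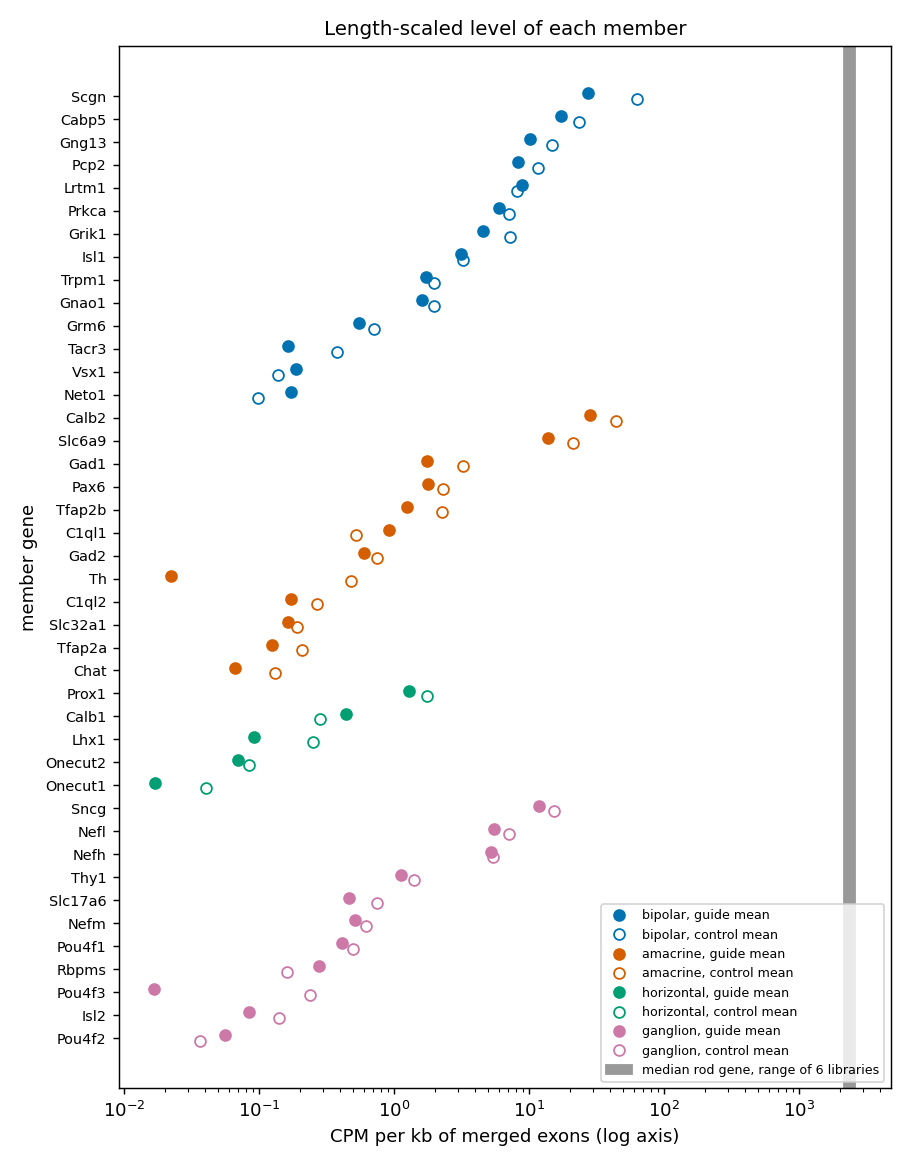
Mean level of each of the 42 members per kilobase of merged exons (log axis), as filled points for the 3 guide libraries and open points for the 3 control libraries, coloured by marker class. The grey band is the range over 6 libraries of the median rod gene, 2158 to 2619 CPM per kb, and every member lies to its left, the highest being Calb2 in guide (28.3 CPM per kb) and Scgn in control libraries (63.3 CPM per kb, but 31.5 without control replicate 3, where Calb2 is at 60.1).

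Within each class a few genes carried the level per kilobase. Scgn, Cabp5 and Gng13 led the bipolar genes, with 27.2, 17.1 and 10.2 CPM per kb in guide libraries and 63.3, 23.6 and 14.8 in control libraries. The Scgn value rests on control replicate 3, without which its control mean was 31.5 CPM per kb. Calb2 and Slc6a9 led the amacrine genes, with 28.3 and 13.8 CPM per kb in guide and 44.2 and 21.2 in control libraries. Sncg led the ganglion cell genes, with 11.9 CPM per kb in guide and 15.3 in control libraries. Prox1 led the horizontal cell genes with 1.30 CPM per kb in guide and 1.75 in control libraries. At the other end, Onecut1 had means of 0.0169 and 0.0407 CPM per kb, Pou4f2 of 0.0561 and 0.0367 and Pou4f3 of 0.0168 and 0.239, guide first in each case. Counts of Onecut1 and Pou4f2 did not pass 9 in any library, and those of Pou4f3 were 10, 38 and 10 in control replicates 1, 2 and 3.

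The comparison of guide with control libraries called none of the members. In the quasi-likelihood fit of edgeR over 17138 genes, with p-values adjusted by Benjamini-Hochberg, 0 of the 38 members tested were higher and 0 lower at an adjusted p under 0.05, where 0.315% of all genes tested were called higher and 0.0292% lower. At an unadjusted p under 0.05, 0 members were higher and 1, Th, was lower, against 3.08% and 2.61% of all genes tested. DESeq2's Wald test called 1 lower, again Th, against 0.302% of its genes called lower. The 4 members not tested, Onecut1, Pou4f2, Pou4f3 and Isl2, fell under the count filter. Log2 fold changes were below 0 for 31 of the 38 and above 0 for 7, with a median of -0.33, while the median over all genes tested was -0.01 and 51.5% of them lay below 0. The members' standard errors were wide, with a median of 0.67 against 0.36 over all genes tested, so only a large difference would have been detectable. Members enter the test partly through the group in which they are high, so the count of signs describes these libraries only.

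**Figure D2:**
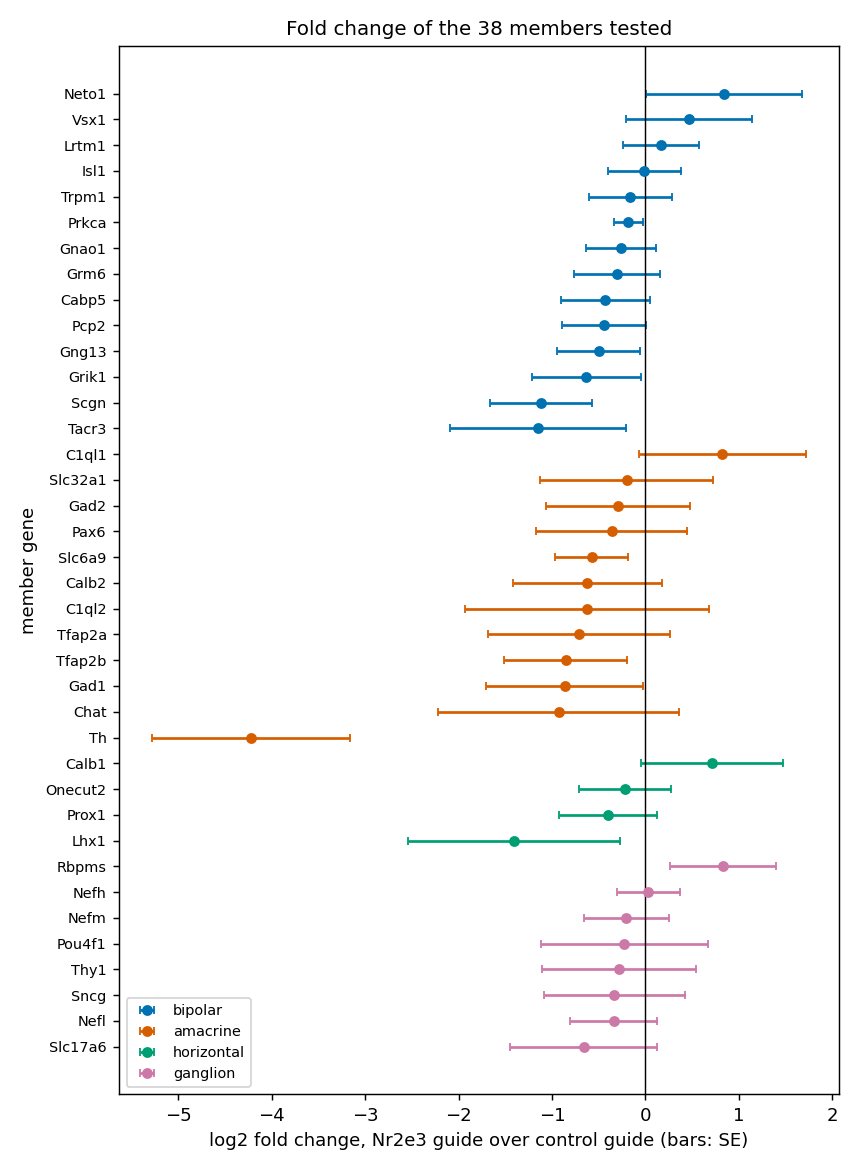
Log2 fold change of the 38 members tested, guide over control, with bars for the standard error, grouped and coloured by marker class. Th stands apart at -4.22 (SE 1.06), and the other 37 lie between -1.41 for Lhx1 and 0.85 for Neto1, none with an adjusted p under 0.05.

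By class the median log2 fold change was -0.28 for 14 bipolar, -0.62 for 12 amacrine, -0.31 for 4 horizontal and -0.25 for 8 ganglion cell genes tested. Groups did not overlap in CPM for 1 tested member that was lower in guide libraries, Th, and 1 that was higher, Rbpms, against 7.55% and 4.63% of all genes tested. Among the untested members, Onecut1 and Pou4f3 also had every guide library below every control library. Those 2 rest on 6 and 4 guide counts in all, against 17 and 58 control counts. For Onecut1, guide replicate 3 and control replicate 1 both had 3 counts, and only library depth sets them apart (0.0906 against 0.0919 CPM).

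Summed by class, bipolar genes stood at 338, 255 and 387 CPM in guide replicates 1, 2 and 3 (mean 327 ± 66.4, SD, n = 3), against 471, 444 and 413 CPM in control replicates 1, 2 and 3 (443 ± 28.9). The guide sums all lay below the control sums, with a ratio of means of 0.737. That separation rests on Scgn, which held 49.7% of the sum in control replicate 3 and 10.2 to 14.9% in the other 5 libraries. Without Scgn the bipolar sums were 289, 229 and 329 CPM in guide libraries, and 418, 396 and 208 CPM in control libraries, and the groups overlapped. Amacrine genes summed to 161, 57.5 and 290 CPM in guide libraries (169 ± 116) and to 289, 348 and 146 CPM in control libraries (261 ± 104). Guide replicate 3 lay with control replicates 1 and 2, and guide replicate 2 was lowest. Horizontal cell genes summed to 19.7, 6.76 and 17.5 CPM in guide (14.6 ± 6.92) and 25.5, 21.4 and 8.87 CPM in control libraries (18.6 ± 8.66). Ganglion cell genes summed to 58.9, 39.9 and 88.9 CPM in guide (62.5 ± 24.7) and 65.1, 103 and 56.7 CPM in control libraries (75.0 ± 24.7). In each class the lowest sum of a group was that of guide replicate 2 or control replicate 3. No test was run on these sums, since the genes were chosen with earlier results known.

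**Figure D3:**
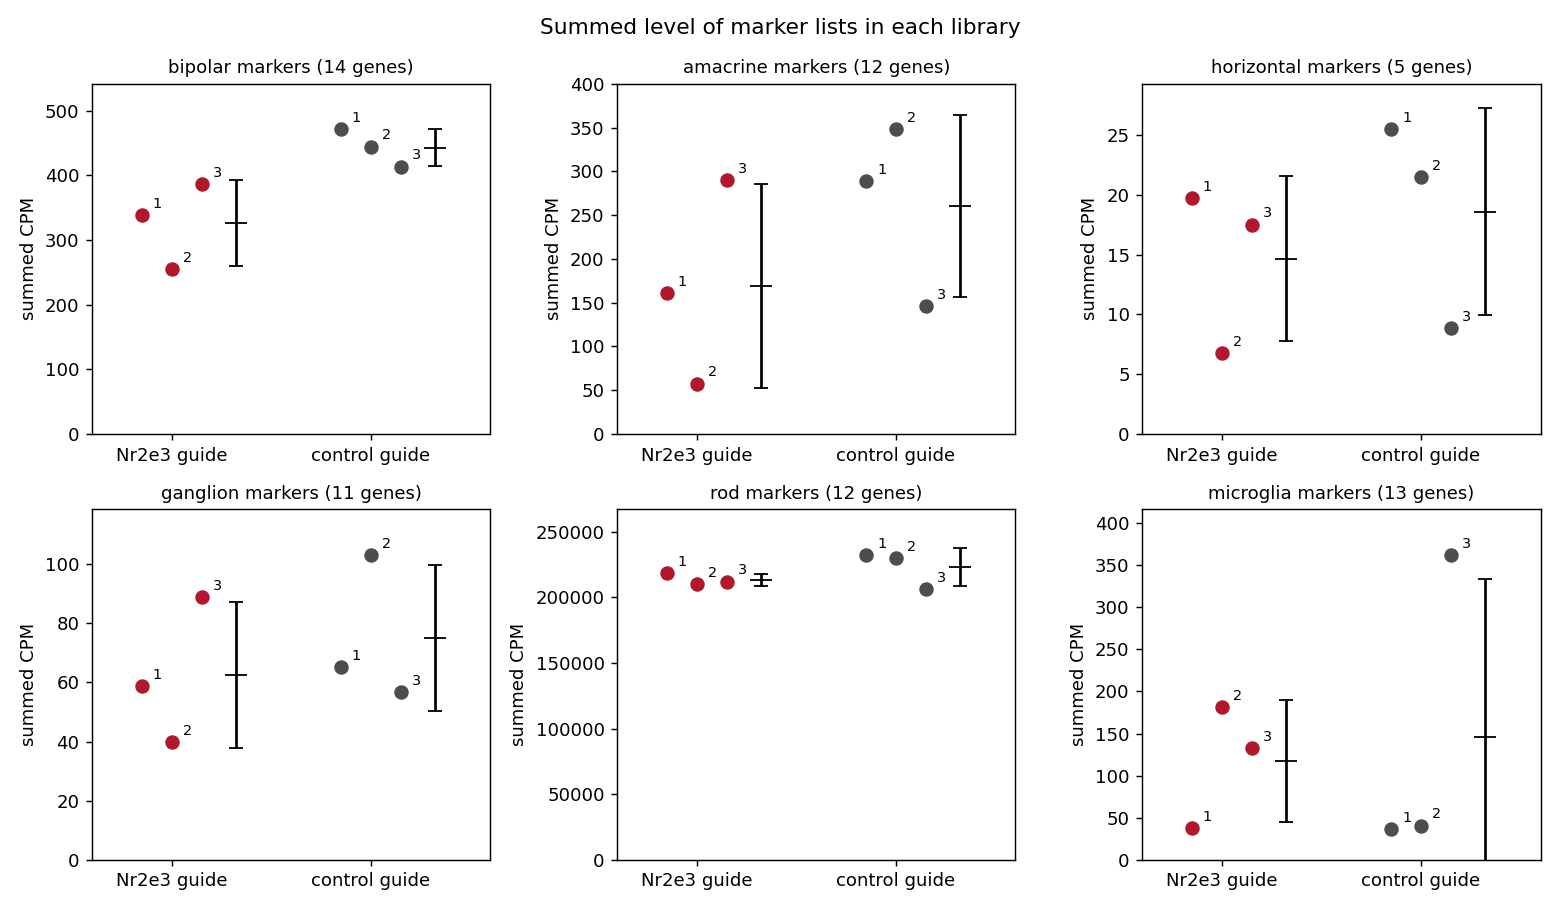
Summed CPM of the 4 marker classes, of 12 rod genes and of 13 microglia genes in each library, with replicate numbers beside the points and the mean ± SD of each group as a bar (the microglia control bar is cut at 0). Guide replicate 2 and control replicate 3 hold the lowest sum of their group in all 4 neuron classes, while microglia genes are highest in the same 2 libraries (181 and 362 CPM).

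Members differed between animals of one group, and mostly in the same animals. Guide replicate 2 was the lowest guide library for 35 of the 42 members, against 43.0% of all genes tested, and control replicate 3 was the lowest control library for 35 of the 42, against 34.1% of all genes tested. For 31 members both held. Control replicate 3 was also below both other controls for 9 of 12 rod, 9 of 10 cone and 10 of 13 Muller glia genes. In the same lists, guide replicate 2 was below both other guide libraries for 4, 2 and 5 genes. Relative to the mean of the other 2 libraries of its group, guide replicate 2 had a median ratio of 0.347 over the members and 0.904 over all genes tested. The same ratio for control replicate 3 was 0.364 over the members and 1.09 over all genes tested. By class, amacrine genes were lowest, with median ratios of 0.129 in guide replicate 2 and 0.264 in control replicate 3. Bipolar genes had median ratios of 0.453 and 0.460, horizontal cell genes 0.437 and 0.365 and ganglion cell genes 0.308 and 0.362 in the same order. The microglia list moved the other way in these libraries, with 13 of 13 genes above both other controls in control replicate 3 and 10 of 13 above both other guide libraries in guide replicate 2. The pigment epithelium list was low with the members in both libraries, at 0.284 times the other guide libraries in guide replicate 2 and 0.351 times the other controls in control replicate 3. The vascular list stood at 0.838 and 0.420 times, and the rod list sum was 0.976 times the mean of the other guide libraries in guide replicate 2 and 0.892 times that of the other controls in control replicate 3. Guide replicate 3 had 132 CPM of microglia genes, against 37.9 in guide replicate 1. Its bipolar, amacrine and ganglion cell sums were the highest of its group, at 387, 290 and 88.9 CPM. Its horizontal cell sum was 17.5 CPM, against 19.7 in guide replicate 1. A relation between these lists was not tested.

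**Figure D4:**
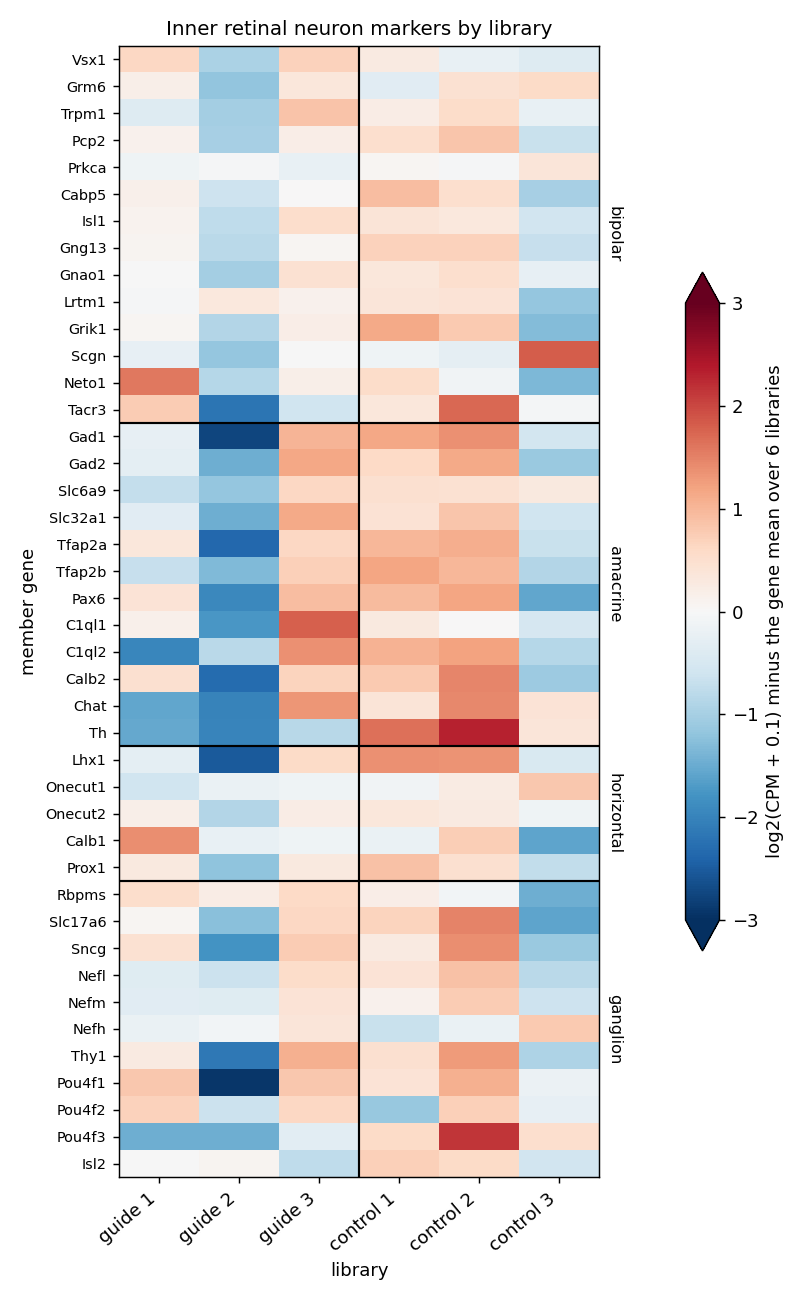
Level of each member in each library as log2(CPM + 0.1) minus the gene's mean over the 6 libraries, blue below and red above the mean, guide libraries left of the line and control libraries right of it. The columns of guide replicate 2 and control replicate 3 are mostly blue, with Scgn, Nefh, Prkca, Grm6 and Onecut1 as the members highest in control replicate 3 among the controls.

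Genes of the ON bipolar cascade are considered first. Grm6, the mGluR6 receptor, had 3.59, 1.34 and 4.08 CPM in guide replicates 1, 2 and 3, against 2.48, 4.39 and 4.78 CPM in control replicates 1, 2 and 3 (log2 fold change -0.30, SE 0.46, edgeR adjusted p = 0.995). Control replicate 3 was the highest of all for this gene. Trpm1, the channel that the receptor closes, had 19.0, 12.3 and 45.2 CPM in guide, against 29.4, 36.9 and 21.5 CPM in control libraries (-0.16, SE 0.44). The count ratio of Trpm1 to Grm6 was 5.29, 9.21 and 11.1 in guide and 11.8, 8.40 and 4.49 in control libraries, so the pair did not keep one ratio. Gnao1, the G protein alpha subunit of the cascade, ran from 9.19 to 25.9 CPM in guide and from 15.9 to 26.5 CPM in control libraries. Gng13, a G protein gamma subunit of ON bipolar cells, ran from 5.02 to 9.35 CPM in guide and from 5.45 to 14.5 CPM in control libraries, and its exons overlap Chtf18 on the opposite strand. Isl1, a transcription factor of ON bipolar cells that amacrine and ganglion cells also use, ran from 7.00 to 17.3 CPM in guide and from 8.05 to 15.6 CPM in control libraries (fitted log2 change -0.01, SE 0.39).

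The usual stains of rod bipolar cells, Prkca and Pcp2, did not move together. Prkca, protein kinase C alpha, had the smallest standard error of the members tested, with 53.6, 56.9 and 50.5 CPM in guide (53.7 ± 3.18, SD, n = 3), against 61.2, 56.9 and 75.1 CPM in control libraries (64.4 ± 9.51), and a fitted log2 change of -0.18 (SE 0.15, adjusted p = 0.995). Guide replicate 2 was not low for it and control replicate 3 was highest. Pcp2, a modulator of G proteins also found in Purkinje cells, had 18.1, 8.26 and 19.2 CPM in guide, against 23.6, 29.4 and 10.4 CPM in control libraries. The Prkca to Pcp2 count ratio was 2.96, 6.89 and 2.63 in guide and 2.59, 1.93 and 7.19 in control libraries. It was highest in the pair of libraries where most members were low. Exons of Prkca overlap Apoh and those of Pcp2 overlap Pet100, both on the opposite strand, and without strand their reads cannot be separated.

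Among all bipolar genes, Scgn and Lrtm1 had the highest mean CPM over the 6 libraries, and Lrtm1 was above Scgn in 5 of 6. Scgn, the calcium sensor secretagogin, had 48.7, 25.9 and 57.5 CPM in guide, against 53.5, 48.4 and 206 CPM in control libraries (fitted log2 change -1.12, SE 0.54, adjusted p = 0.934, unadjusted p = 0.0766). Control replicate 3 alone was high, at 4.04 times the mean of the other 2 controls, and without it the fold change was -0.20. Cabp5, a calcium-binding protein of bipolar cells, showed the opposite in that library, with 52.1, 30.4 and 47.3 CPM in guide, against 88.7, 66.5 and 23.3 CPM in control libraries (-0.43, SE 0.47). The Scgn to Cabp5 count ratio was 0.935, 0.854 and 1.22 in guide and 0.603, 0.727 and 8.81 in control libraries. Lrtm1, a leucine-rich repeat membrane protein, had 62.1, 79.8 and 69.4 CPM in guide, against 81.9, 84.4 and 28.4 CPM in control libraries (0.17, SE 0.41). Guide replicate 2 was the highest guide library for Lrtm1, unlike nearly all other members, and control replicate 3 was low at 0.341 times the other controls.

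Grik1, a kainate receptor subunit of OFF bipolar cells, had 34.9, 18.3 and 38.6 CPM in guide, against 73.8, 57.5 and 13.6 CPM in control libraries (-0.63, SE 0.58). All guide libraries lay below control replicates 1 and 2 and above control replicate 3. Vsx1, a transcription factor of cone bipolar cells, stayed under 1 CPM throughout, with 0.917, 0.243 and 0.967 CPM in guide, against 0.705, 0.472 and 0.408 CPM in control libraries (0.47, SE 0.68). Tacr3, a neurokinin receptor, and Neto1, an auxiliary subunit of kainate receptors, reached at most 1.32 and 2.86 CPM in guide libraries, and 2.65 and 1.35 CPM in control libraries.

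**Figure D5:**
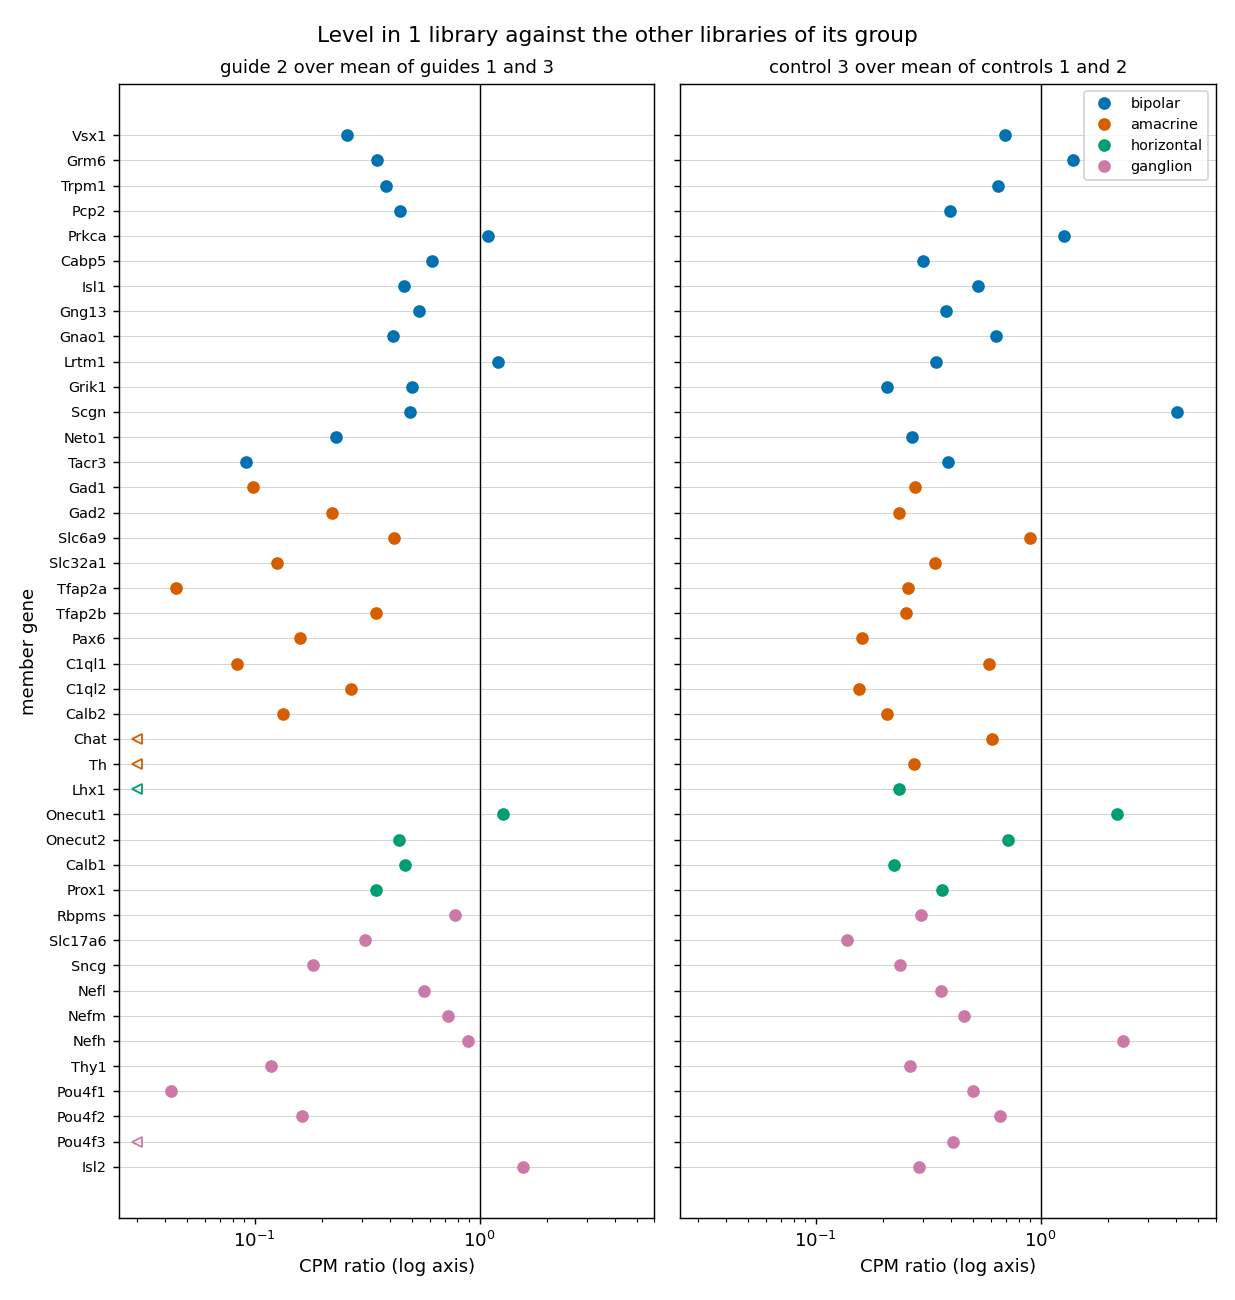
CPM of each member in guide replicate 2 over the mean of guide replicates 1 and 3 (left) and in control replicate 3 over the mean of control replicates 1 and 2 (right), on a log axis, coloured by class, with open triangles at the left edge for members with 0 counts in guide replicate 2. Most points lie left of 1 in both panels (medians 0.347 and 0.364), and Scgn lies at 4.04 in control replicate 3.

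Among amacrine genes, those of GABA synthesis varied widely between animals. Gad1, which makes GABA from glutamate, had 11.2, 1.90 and 27.4 CPM in guide, against 30.1, 35.0 and 9.04 CPM in control libraries (-0.86, SE 0.84, edgeR adjusted p = 0.995). Guide replicate 3 lay close to control replicates 1 and 2. Gad2, the second enzyme of this step, ran from 1.05 to 7.04 CPM in guide and from 1.37 to 6.93 CPM in control libraries, and Slc32a1, which loads GABA and glycine into vesicles, from 0.0810 to 0.997 CPM in guide and from 0.233 to 0.796 CPM in control libraries. Slc6a9, the glycine transporter GlyT1, was the most abundant amacrine member, with 50.1, 36.8 and 126 CPM in guide (71.0 ± 48.2, SD, n = 3), against 113, 112 and 101 CPM in control libraries (109 ± 6.93). Its log2 fold change was -0.57 (SE 0.39, adjusted p = 0.995), with guide replicates 1 and 2 below all controls and guide replicate 3 above them. Control replicate 3 was 0.894 times the other controls for Slc6a9 but 0.278 times for Gad1, and the Slc6a9 to Gad1 count ratio was 4.47, 19.3 and 4.60 in guide and 3.76, 3.20 and 11.1 in control libraries. Exons of Slc6a9 overlap B4galt2 and Ccdc24 on the opposite strand.

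Pax6, a transcription factor of amacrine, horizontal and ganglion cells, had 24.0, 4.65 and 34.3 CPM in guide, against 34.9, 40.6 and 6.04 CPM in control libraries (-0.36, SE 0.81). Its ratio to the other libraries of the group was 0.160 in both guide replicate 2 and control replicate 3. Calb2, calretinin, had 65.3, 9.23 and 73.4 CPM in guide, against 80.5, 129 and 21.8 CPM in control libraries (-0.62, SE 0.80). Tfap2b, a transcription factor of amacrine cells, had 5.50, 3.48 and 14.7 CPM in guide, against 20.4, 17.9 and 4.81 CPM in control libraries (-0.85, SE 0.66), and its paralog Tfap2a stayed at or below 0.997 CPM in guide libraries, and 1.42 CPM in control libraries. All 3 shared the low libraries. The secreted C1q-like proteins C1ql1 and C1ql2 reached at most 2.99 and 0.906 CPM in guide libraries, and 0.981 and 0.796 CPM in control libraries.

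Markers of rare amacrine types had low counts, which lay at the detection floor in guide replicates 1 and 2 but above it in the controls. Th, the rate-limiting enzyme of dopamine synthesis, had 1, 0 and 4 counts in guide replicates 1, 2 and 3, against 37, 63 and 14 counts in control replicates 1, 2 and 3. In CPM this was 0.0367, 0 and 0.121 in guide (0.0525 ± 0.0620, SD, n = 3), against 1.13, 1.86 and 0.408 in control libraries (1.13 ± 0.725), so the groups did not overlap, and the 0 in guide replicate 2 allows up to 0.121 CPM. The fitted log2 fold change was -4.22 (SE 1.06), with an edgeR adjusted p of 0.324 (unadjusted p = 0.00454), whereas DESeq2 gave an adjusted p of 0.0194. Over 13 alternative settings the adjusted p ran from 0.0194 to 1.0 and passed in 1, the DESeq2 test, and the fitted fold change, which depends on the prior count at this depth, ran from -5.94 to -3.72. Th (GRCm38 chromosome 7, 142892779 to 142899995) shares no exon with another GENCODE gene. Chat, the acetylcholine-synthesizing enzyme of starburst cells, had 1, 0 and 30 counts in guide, against 14, 34 and 15 in control libraries (-0.93, SE 1.29, adjusted p = 0.995), and guide replicate 3 lay among the controls. Guide replicate 3 was the highest guide library for Chat, Gad1, Tfap2b and Slc6a9, and guide replicate 2 the lowest. Without guide replicate 3 their fitted log2 changes were -4.68, -1.85, -1.60 and -1.22 in that order. The edgeR adjusted p then ran from 0.150 for Slc6a9 to 0.578 for Gad1, so none was called. Without guide replicate 2 instead, the changes were -0.38, -0.36, -0.52 and -0.29 in the same order, and again none was called.

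Horizontal cell markers were the least abundant class, and Prox1 held 71.1 to 79.6% of its sum in guide and 74.7 to 83.4% in control libraries. Prox1, a homeodomain factor that bipolar and AII amacrine cells also use, had 14.0, 4.86 and 13.9 CPM in guide, against 21.2, 16.0 and 6.8 CPM in control libraries (-0.40, SE 0.53, edgeR adjusted p = 0.995), and its exons overlap Prox1os on the opposite strand. Calb1, calbindin, had 3.92, 1.21 and 1.30 CPM in guide, against 1.23, 2.45 and 0.408 CPM in control libraries (0.71, SE 0.76), where guide replicate 1 was the highest. Onecut2, a horizontal cell factor, had 1.36, 0.607 and 1.42 CPM in guide, against 1.53, 1.47 and 1.08 CPM in control libraries. Lhx1, a LIM homeodomain factor of horizontal cells, had 10, 0 and 25 counts in guide, against 45, 46 and 11 in control libraries (-1.41, SE 1.13). Onecut1 had 1, 2 and 3 counts in guide, against 3, 5 and 9 in control libraries, at or near the 3 counts taken as the floor.

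Ganglion cell genes divided into neurofilaments, which other neurons also make, and more specific markers. Nefh, the heavy neurofilament, had 17.4, 19.2 and 25.8 CPM in guide, against 12.7, 17.5 and 35.0 CPM in control libraries (0.03, SE 0.34, edgeR adjusted p = 0.998), with control replicate 3 highest at 2.32 times the other controls. Nefl, the light neurofilament, had 15.1, 12.2 and 28.2 CPM in guide, against 25.6, 35.3 and 11 CPM in control libraries (-0.34, SE 0.47), lowest in that library. The Nefh to Nefl count ratio was 1.16, 1.57 and 0.914 in guide and 0.496, 0.496 and 3.17 in control libraries. Nefm, the medium neurofilament, whose exons overlap those of Nefl on the opposite strand, ran from 2.39 to 4.17 CPM in guide and from 1.98 to 5.34 CPM in control libraries. The Nefl to Nefm count ratio stayed within 5.12 to 6.76 in guide and 5.56 to 7.58 in control libraries.

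Sncg, gamma-synuclein, had 12.6, 2.55 and 15.4 CPM in guide, against 11, 24.1 and 4.14 CPM in control libraries (-0.33, SE 0.75). Slc17a6, the vesicular glutamate transporter of ganglion cells, had 2.64, 1.01 and 3.93 CPM in guide, against 4.08, 7.34 and 0.787 CPM in control libraries (-0.66, SE 0.79). Thy1, a surface glycoprotein, had 3.48, 0.567 and 6.10 CPM in guide, against 4.02, 7.08 and 1.46 CPM in control libraries (-0.28, SE 0.82). All 3 were low in guide replicate 2 and control replicate 3. Pou4f1, a transcription factor of ganglion cells, had 78, 3 and 94 counts in guide, against 70, 117 and 48 in control libraries (-0.22, SE 0.89). Rbpms, an RNA-binding protein used as a ganglion cell marker, had 1.94, 1.54 and 2.02 CPM in guide (1.84 ± 0.260, SD, n = 3), against 1.53, 1.24 and 0.408 CPM in control libraries (1.06 ± 0.583), with a fitted log2 change of 0.83 (SE 0.57, adjusted p = 0.995). Every guide library was above every control library for Rbpms, the closest being 38 counts in guide replicate 2 and 50 in the deeper control replicate 1. Pou4f2, Pou4f3 and Isl2 had at most 8, 4 and 6 counts in a guide library and 9, 38 and 14 in a control library.

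Further genes listed as markers of the same neurons, in 4 lists that hold no member, gave no call either. Of 14 other bipolar genes tested, 0 were called by edgeR and 0 had an unadjusted p under 0.05 (median log2 fold change -0.09). Of 12 other amacrine genes tested, 0 were called and 0 had such a p (median -0.28). Of 3 other horizontal cell genes tested 0 were called, with 1 higher and 1 lower at an unadjusted p under 0.05. Their median was 0.35, of opposite sign to the -0.31 of the horizontal members. Of 12 other ganglion cell genes 0 were called, also with 1 higher and 1 lower (median -0.37). Among all genes tested, 3.08% were higher and 2.61% lower at such a p. The lower ganglion cell gene was Opn4, melanopsin, the photopigment of intrinsically photosensitive ganglion cells, with 2.82, 1.58 and 2.05 CPM in guide, against 5.58, 4.75 and 9.71 CPM in control libraries (-1.54, SE 0.38, adjusted p = 0.312). These lists were led by single genes, Lrit1 holding 66.0 to 81.2% of the bipolar sum and Septin4 65.9 to 88.8% of the horizontal sum over the 6 libraries. Which cells the reads of Lrit1 and Septin4 came from was not tested. Without Lrit1 the other bipolar sums were 122, 98.4 and 134 CPM in guide, against 135, 135 and 112 CPM in control libraries. In control replicate 3, 9 of 15, 11 of 16, 3 of 5 and 10 of 12 of the other bipolar, amacrine, horizontal and ganglion cell genes were below both other controls, against 34.1% of all genes tested. In guide replicate 2 the counts below both other guide libraries were 10, 11, 2 and 9, against 43.0% of all genes tested.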

How the data were processed

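Read counts per gene symbol were deposited by the authors as raw counts, 1 table per library, including 5 entries outside any gene. Cutadapt, HTSeq 0.12.4 and STAR 2.7.3a, with GRCm38 (mm10), are named per the submitters' processing notes. Neither annotation nor strand setting is given in the sources used here. The cDNA kit named in the labels' protocols does not mark strand. Those entries (21.6 to 23.7% of counts) entered neither the library sizes nor the tests.

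CPM is the count over the library's gene-count total, without TMM. Groups were compared with edgeR 4.0.16 (R 4.3.3) on the whole table, with TMM factors, filterByExpr by group (min.count 10, 15 in total), then glmQLFit and glmQLFTest on a design holding group alone. Calls were made at a Benjamini-Hochberg adjusted p under 0.05. The standard error is the fold change over the square root of F. On simulated data over 16812 genes, the test called 100 of 100 genes changed 4-fold but only 40 of 100 changed 2-fold. The simulation gave every gene the same dispersion and held no deviating library. These rates therefore do not carry over to the members, whose standard errors were wider (median 0.67 against 0.36 over all genes tested). The 3 mice of a group are separate animals, and no 2 libraries of a group agreed within sampling noise. Exon lengths and overlaps come from GENCODE M21 (merged exons), which may differ from the authors' annotation, and promoters and coordinates from RefSeq GRCm38.p6. Of the 42 members, 28 share no exon with another gene.

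The members and lists were chosen with earlier results of these data known. Values in every library are given for called members, members whose groups do not overlap and reach a mean of 1 CPM, the 5 most abundant members per class, and 12 defining markers, 26 genes in all. Trpm1, Pcp2 and other members described beyond these, and Opn4, were chosen after their values were seen. Floors cover counting error only, whereas the SDs and standard errors also hold differences between animals.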

Additional observations from a re-analysis of the deposited data

How the results depend on the processing

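Under 15 alternative settings, 0 members were called higher in each, and 0 were called lower except with DESeq2 (1, Th). Over the whole table, 54 genes were called higher and 5 lower. The counts were 39 and 3 with plain library totals, 130 and 25 without a count filter, 6 and 0 with sex as a term, 186 and 57 with DESeq2 and 83 and 8 at an adjusted p under 0.1, and 14 to 80 and 0 to 9 when 1 library was left out. Leaving out control replicate 3 gave the highest of these, 80 and 9. With the replicate block they were 31 and 1. Same-numbered libraries did not deviate together (correlations over genes of 0.136, -0.144 and 0.0441), and the labels give separate animals, so the samples share only a number.

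The amacrine median of -0.62 became -1.72 without both replicate-3 libraries, and -1.32 to -0.22 when 1 library was left out. The ganglion median ran from -0.71 to 0.18 when 1 library was left out and so changed sign. The horizontal median of -0.31 turned to 0.027 with sex as a term. The log2 ratio of summed CPM turned to 0.038 for ganglion cell genes without control replicate 2, and reached -1.26 for amacrine genes without guide replicate 3. Without both replicate-3 libraries, Slc6a9 was at -1.31 (edgeR adjusted p = 0.0659) and Tfap2b at -2.03 (adjusted p = 0.0814). Without guide replicate 2, Slc6a9 was at -0.29 and Tfap2b at -0.52. Several members changed sign in at least 1 setting, some of them far from 0 at first (Calb1 0.71, Slc17a6 -0.66, Cabp5 -0.43, Prox1 -0.40). With sex as a term, Lrtm1 was at -0.0058, Onecut2 at 0.067, Sncg at 0.011, Nefh at -0.21 and Pou4f1 at 0.37. Nefh was at -0.064 with plain library totals, and Lrtm1 at -0.15 without both replicate-3 libraries. With 1 library left out, log2 fold changes ran from -0.067 to 1.42 for Calb1, -0.54 to 0.032 for Grm6, -0.87 to 0.098 for Pax6, -0.40 to 0.054 for Onecut2, -0.77 to 0.43 for Sncg, -0.97 to 0.30 for Thy1, -0.64 to 0.32 for Pou4f1, -0.21 to 0.48 for Nefh, -0.83 to 0.030 for Cabp5, -0.77 to 0.019 for Prox1, -1.16 to 0.043 for Slc17a6, -0.73 to 0.030 for Nefl and -0.21 to 0.42 for Lrtm1. The cause was not tested.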
